A study of Mus musculus with 6 samples.

Results

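CpG methylation around intracisternal A particle (IAP) copies was measured in the cerebral cortex of mouse embryos. IAP copies were located in the GRCm38 genome as stretches of at most 500 bp bounded by the IAP qPCR primers of the study, each primer with at most 2 mismatches. This gave 1056 copies, 970 of them on autosomes. An autosomal CpG cytosine was taken when it lay within 3000 bp of such a stretch and had at least 6 reads in each of the 6 libraries. A total of 588 cytosines met this rule, or 0.0923% of the 636736 autosomal cytosines covered that well, and they lay near 166 copies, or 17.1% of the autosomal ones. No measured methylation value entered this choice.

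IAP elements are long terminal repeat (LTR) retrotransposons of rodents. A full-length copy has an LTR at each end, the 5′ one carrying the promoter, and an internal part with gag and pol sequences between them. In somatic cells these copies are densely methylated, and KAP1, Setdb1 and histone H3 lysine 9 methylation act on them as well. Uhrf1 binds hemimethylated CpGs behind the replication fork and brings in the maintenance methyltransferase Dnmt1, so that methylation is copied to the new strand.

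The samples were whole cortices at embryonic day 16 (E16), on a C57BL/6 background, with 3 libraries of Uhrf1 +/- embryos (control) and 3 of Uhrf1 conditional knockout embryos (cKO). Per the study's methods, Cre was driven from the Emx1 locus in both groups, so that controls had lost 1 floxed copy of Uhrf1 exon 4 in the dorsal telencephalon and cKO embryos both. The cortex also holds cells outside the Emx1 lineage, such as vessel cells and microglia, and a lower level in bulk DNA cannot be told apart as a partial loss in all cells or a full loss in some. Oxidative reduced representation bisulfite sequencing (Ox-RRBS) reads 5-methylcytosine at CpGs near MspI sites (CCGG), with 5-hydroxymethylcytosine read as unmethylated. The values are the percent of reads that were C at a cytosine, averaged with equal weight per cytosine.

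The library labelled control replicate 1 stood apart from the other two control libraries. Over the 588 cytosines its mean was 45.3%, while the other controls were at 77.6% and 77.3% and the cKO libraries at 50.2%, 50.4% and 44.7%. Over all autosomal cytosines it was at 15.5%, just below the cKOs at 15.7% to 19.4%, with 39.1% and 38.8% in the other controls. Its label was kept. Tests between the groups are given with and without it, while shares kept refer to control replicates 2 and 3 alone. Leaving it out selects a control by the outcome that is measured, so values without it are conditional on that choice. Coverage summed over the cytosines listed in a file was 18238737 to 31019082, where a read counts at each cytosine it covers. Median coverage of the 588 cytosines was 20 to 30.5 reads per library.

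The sequences below show what the located stretches and the measured CpGs look like. All were read from GRCm38 and are printed 5′ to 3′ in the direction of the copy, with capitals marking the CpGs that were covered in all 6 libraries and the nearest protein-coding gene or host gene in parentheses. The first is the located stretch itself in its most frequent form, identical in 661 of the 970 autosomal copies. It is 91 bases long and holds 5 CpGs but no CCGG, and no cytosine inside any located stretch was covered.
chr1:35788933-35789023 (Hs6st1, plus strand): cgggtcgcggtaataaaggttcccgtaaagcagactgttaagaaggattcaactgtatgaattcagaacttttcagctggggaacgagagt

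Just 5′ of the located stretch lies the 3′ end of the LTR and the start of the internal part. Of the 14 copies measured within 500 bp, 3 are shown, with 8, 7 and 6 of the 62 cytosines measured there. Each window of 90 bases holds 8 to 10 CpGs.
chr2:156118809-156118898 (Gm28036, minus strand): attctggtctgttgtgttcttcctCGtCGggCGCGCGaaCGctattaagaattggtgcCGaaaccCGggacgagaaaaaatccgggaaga
chr1:13550815-13550904 (Tram1, plus strand): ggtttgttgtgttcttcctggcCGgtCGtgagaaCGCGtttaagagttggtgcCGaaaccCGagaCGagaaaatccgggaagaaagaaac
chr17:38542558-38542647 (Esp34, minus strand): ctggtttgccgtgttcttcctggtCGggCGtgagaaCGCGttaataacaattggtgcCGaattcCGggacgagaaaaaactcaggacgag

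On the 3′ side the located stretch runs into the internal part of the element. The windows shown hold the 4 copies with the highest cKO mean among the 64 copies that had at least 4 measured cytosines and at least 50% in control replicates 2 and 3. All 4 lay on this side, and the Macrod2 and Slitrk6 copies were measured at the corresponding CpGs, from 588 to 634 bp past the stretch.
chr13:44266629-44266718 (Cd83, plus strand): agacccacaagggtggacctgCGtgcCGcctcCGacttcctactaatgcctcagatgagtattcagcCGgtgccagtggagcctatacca
chr2:142310295-142310384 (Macrod2, minus strand): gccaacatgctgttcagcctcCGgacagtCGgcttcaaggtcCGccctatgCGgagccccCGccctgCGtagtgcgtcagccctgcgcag
chr14:110056165-110056254 (Slitrk6, plus strand): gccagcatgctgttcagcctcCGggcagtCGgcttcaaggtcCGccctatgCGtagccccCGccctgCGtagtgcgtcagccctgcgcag
chr12:41365855-41365944 (Immp2l, plus strand): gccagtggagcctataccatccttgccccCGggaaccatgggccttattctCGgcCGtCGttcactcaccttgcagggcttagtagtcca

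Beyond 500 bp on the 5′ side lies mostly the host sequence into which the copy inserted. The 4 copies with the lowest cKO mean by the same rule all lay there. Of all 166 copies, 79 were measured on 5′ host sequence alone and 80 on the element alone (3′ side or within 500 bp). The division of the 64 copies that met the rule is not given.
chr8:119340183-119340272 (Hsbp1, minus strand): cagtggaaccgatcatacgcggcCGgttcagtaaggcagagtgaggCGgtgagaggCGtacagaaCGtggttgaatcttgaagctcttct
chr19:41141311-41141400 (Tll2, plus strand): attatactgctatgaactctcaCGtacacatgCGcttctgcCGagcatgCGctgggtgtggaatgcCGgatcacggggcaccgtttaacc
chr11:65460365-65460454 (Myocd, minus strand): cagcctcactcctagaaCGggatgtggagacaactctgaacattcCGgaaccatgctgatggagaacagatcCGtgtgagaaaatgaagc
chr6:37551721-37551810 (Akr1d1, minus strand): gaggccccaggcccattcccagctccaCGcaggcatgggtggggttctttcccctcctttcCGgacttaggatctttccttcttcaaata

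Repeat annotation and recurring sequence were divided between the 2 sides likewise. On the 3′ side 99.2% of cytosines at 500 to 1000 bp and 97.8% at 1000 to 3000 bp were in soft-masked repeat sequence, and on the 5′ side 96.8% within 500 bp, 44.4% at 500 to 1000 bp and 21.8% at 1000 to 3000 bp. The 25 bases centred on the CpG recurred around at least 10 other copies for 50% of cytosines within 500 bp on the 5′ side, for 62.1% and 48.4% in the nearer and farther 3′ classes, and for 0% of those beyond 500 bp on the 5′ side. No cytosine within 500 bp on the 3′ side was covered, where CCGG is nearly absent. Of the 588 cytosines, 361 were intergenic, 163 in introns and 64 in exons. A copy had a median of 3 measured cytosines and at most 13, and 41 copies had 1. The 588 cytosines formed 233 runs on 1 strand with neighbours within 100 bp, so many shared reads and are not independent.

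The loss was smallest in the LTR region and on the 3′ side close to the stretch. Within 500 bp on the 5′ side (62 cytosines, 14 copies) the controls were at 56.2%, 80.3% and 82.3%, in replicate order, and the cKOs at 62.6%, 64.8% and 56.9%. On the 3′ side at 500 to 1000 bp (124 cytosines, 31 copies) the controls were at 64.0%, 87.9% and 88.8% and the cKOs at 68.2%, 69.2% and 67.3%. All 3 cKO libraries lay below control replicates 2 and 3 in both classes, and control replicate 1 lay below the cKO libraries. Set against the mean of control replicates 2 and 3, the cKO level was 75.6% ± 5.02 (SD, n = 3) of it in the first class and 77.2% ± 1.07 (SD, n = 3) in the second.

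Farther into the element the loss was larger. On the 3′ side at 1000 to 3000 bp (91 cytosines, 43 copies) the controls were at 56.9%, 87.4% and 87.2% and the cKOs at 60.4%, 60.3% and 54.3%. The cKO level there was 66.8% ± 3.99 (SD, n = 3) of that in control replicates 2 and 3.

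Host sequence on the 5′ side lost the most. At 500 to 1000 bp (36 cytosines, 13 copies) the controls were at 47.2%, 87.4% and 86.2% and the cKOs at 47.4%, 55.1% and 43.3%. At 1000 to 3000 bp (275 cytosines, 78 copies) the controls were at 30.4%, 67.8% and 66.6% and the cKOs at 36.3%, 34.8% and 28.8%. The cKO level was 56.0% ± 6.90 (SD, n = 3) and 49.5% ± 5.87 (SD, n = 3) of control replicates 2 and 3. Over all autosomal cytosines it was 46.6% ± 5.41 (SD, n = 3), close to the farther class and below the nearer one.

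Tests over libraries could not reach a threshold of 0.05 in this design. A two-sided exact permutation test cannot give a p below 0.1, either with 3 against 3 libraries or with 2 against 3. Over all 588 cytosines the cKO mean was 18.3 points lower than that of the 3 controls (exact permutation p = 0.3) and 29.0 points lower than that of control replicates 2 and 3 (exact permutation p = 0.1). By class the difference from the 3 controls was between 11.5 and 25 points, with exact permutation p of 0.3 or 0.4 (0.4 after Benjamini-Hochberg adjustment over the 8 distance and side classes). Without control replicate 1 it was 19.9 points within 500 bp, 38.2 points at 500 to 1000 bp on the 5′ side and 33.9 points beyond it, and every class gave the smallest possible p of 0.1 by exact permutation (adjusted p = 0.1).

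**Figure D1:**
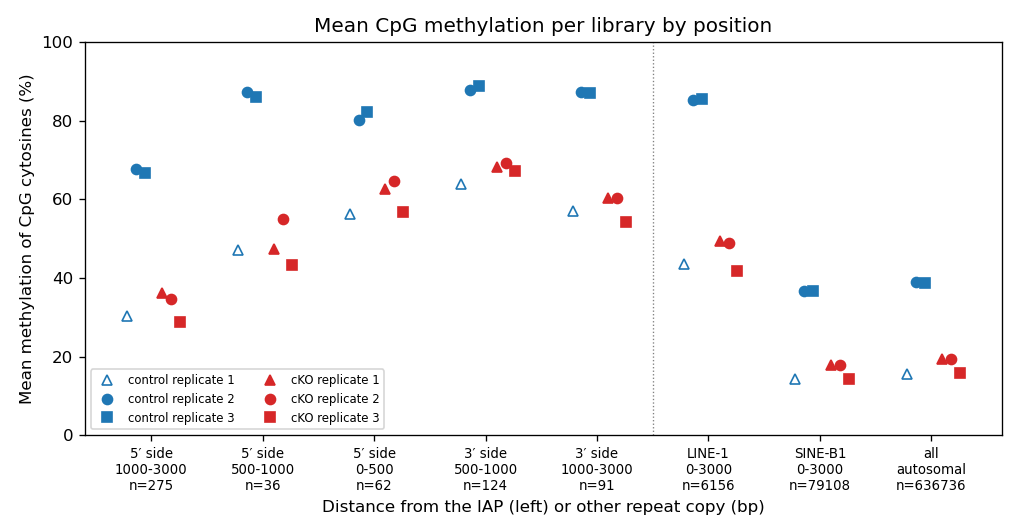
Mean methylation (%) of CpG cytosines by distance in bp and side of the IAP copy, with LINE-1, SINE-B1 and all autosomal cytosines at the right; each point is 1 library, n gives the cytosines, and control replicate 1 is drawn open. Control replicates 2 and 3 lie above all cKO libraries in every class, control replicate 1 lies among or below the cKO libraries, and among the IAP classes the gap is narrowest within 500 bp and at 500 to 1000 bp on the 3′ side.

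In bins of 250 bp the share left on the 5′ side was higher in the 2 bins within 500 bp than in the 10 bins beyond it. From 250 to 500 bp before the stretch (12 cytosines, 5 copies) the cKO mean was 84.6% of control replicates 2 and 3, and in the last 250 bp (50 cytosines, 12 copies) it was 73.1%. The 10 bins farther out ranged from 42.6% at 2500 to 2750 bp (40 cytosines, 15 copies) to 59.4% at 500 to 750 bp (13 cytosines, 9 copies). On the 3′ side the 2 bins from 500 to 1000 bp were at 85.4% and 73.0%, the bin from 1500 to 1750 bp at 52.2% and the bin from 1750 to 2000 bp at 74.7%. The share left was thus uneven along the element, and the bins beyond 2000 bp held 1 to 11 cytosines.

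**Figure D2:**
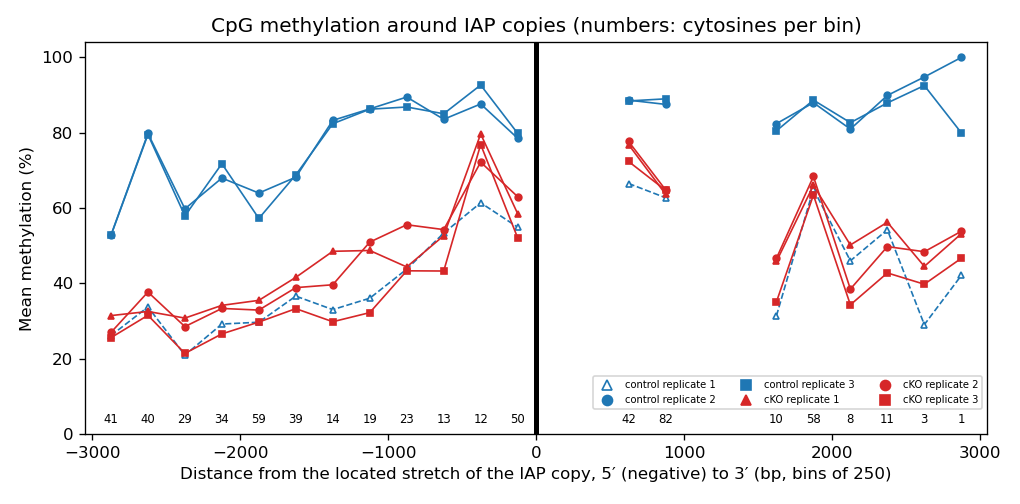
Mean methylation (%) in bins of 250 bp by distance in bp from the located stretch (black bar), 5′ to 3′ along the copy, one line per library; control replicates are blue (replicate 1 dashed with open points), cKO replicates red, and the numbers give cytosines per bin. On the 5′ side the cKO lines rise from 25.6% to 31.5% in the farthest bin to between 72.2% and 79.7% in the bin from 250 to 500 bp. In the last 250 bp they are lower, at 52.1% to 63.0%.

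The order of the classes was the same among cytosines that were highly methylated in controls. Cytosines at 90% or more in control replicate 2 were chosen, and the levels were then read in the other libraries. Among these, control replicate 3 was at 95.7% within 500 bp on the 5′ side, at 94.0% on the 3′ side and at 90.6% beyond 500 bp on the 5′ side. The cKO level was 77.2% ± 5.95 (SD, n = 3; 35 cytosines), 73.9% ± 1.69 (SD, n = 3; 136 cytosines) and 57.2% ± 5.61 (SD, n = 3; 105 cytosines) of it. For all autosomal soft-masked cytosines chosen likewise (21537) it was 56.4% ± 4.73 (SD, n = 3), and for all autosomal ones (102910) 47.9% ± 5.51 (SD, n = 3). Control replicate 1 gave 72.0%, 70.2% and 54.3% in the 3 IAP classes and 43.0% over all autosomal cytosines.

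CpG density moved with the level left in the cKOs. The number of CpGs within the surrounding 101 bases had a median of 6 on the 3′ side and within 500 bp, of 4 beyond 500 bp on the 5′ side and of 5 over all autosomal cytosines. Over all autosomal cytosines at 90% or more in control replicate 2, the level left rose from 43.9% with 1 or 2 CpGs to 64.9% with 9 or more. In the element classes (3′ side or within 500 bp) it was 51.2% with 1 or 2 CpGs (11 cytosines), 77.6% with 3 or 4, 71.9% with 5 or 6, 74.9% with 7 or 8 and 81.2% with 9 or more (49 cytosines). At equal density from 3 CpGs upward the element classes lay above LINE-1 and above the autosomal mean, while the 5′ side beyond 500 bp lay within 1 SD of its own cKO libraries from LINE-1 in every density class. The part of density in the differences between classes was not tested further.

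**Figure D3:**
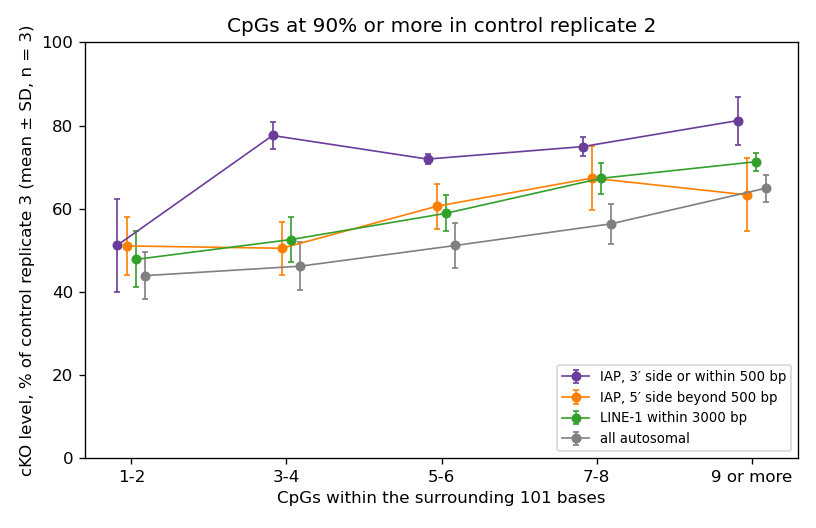
Level left in the cKO libraries, in % of control replicate 3 (mean ± SD over 3 cKO libraries), by the number of CpGs in the surrounding 101 bases, for cytosines at 90% or more in control replicate 2. The IAP element classes lie between 71.9% and 81.2% from 3 CpGs upward, above LINE-1 at 52.6% to 71.3% and all autosomal cytosines at 46.2% to 64.9%.

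Cytosines around the other repeat families with primers in the study were compared within each library. LINE-1 copies (6156 cytosines within 3000 bp, none within 3000 bp of an IAP copy) were at 43.6%, 85.4% and 85.5% in the controls and at 41.9% to 49.4% in the cKOs. Within 500 bp the IAP cytosines lay 6.09 and 4.12 points below LINE-1 in control replicates 2 and 3, but 14.1, 17.5 and 17 points above it in the cKOs and 14 points above it in control replicate 1. In these means the order of the 2 families was thus opposite in control replicates 2 and 3 and in the cKOs. The IAP mean includes element CpGs that were low in the controls, described below, whose part in this order was not tested. Among cytosines chosen as above for high methylation in control replicate 2, the order was the same in both groups. Control replicate 3 was at 95.7% within 500 bp of IAP and at 91.1% within 3000 bp of LINE-1. The cKO means were 73.9% and 52.2%. Over all cytosines within 500 bp, IAP minus LINE-1 differed between groups by 15.0 points with all 6 libraries. Without control replicate 1 it differed by 21.3 points (exact permutation p = 0.1 in both, the smallest possible, with adjusted p = 0.3 and 0.112 over 9 contrasts). Within 500 bp of SINE-B1 (9305 cytosines) the IAP cytosines lay 16.4 and 18.8 points higher in control replicates 2 and 3 and 30.1 to 33.2 points higher in the cKOs, a difference of 9.62 points with all 6 libraries and 13.8 points without control replicate 1 (exact permutation p = 0.1 in both, adjusted p = 0.3 and 0.112).

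Over the whole 3000 bp the contrast with LINE-1 was smaller. IAP cytosines were 7.84 and 8.13 points below LINE-1 in control replicates 2 and 3, and 0.745 to 2.85 points above it in the cKOs. The difference was 6.43 points with all libraries (exact permutation p = 0.3) and 9.67 points without control replicate 1 (exact permutation p = 0.1). The IAP mean over 3000 bp includes 50 cytosines near 6 copies, on the 5′ side beyond 500 bp, that were under 10% in control replicates 2 and 3. They averaged 0.835% in those controls and 0.961% in the cKOs. Such cytosines also enter the far mean below, and their part in these differences was not tested. Against SINE-B1 the IAP excess was 40.8 and 40.7 points in control replicates 2 and 3 and 30.4 to 32.6 points in the cKOs, but this fall of the excess reversed when each copy had the same weight. Near minus far methylation, the mean within 500 bp less that at 1000 to 3000 bp, was 19.2, 7.64 and 10.6 points in the controls and 20.4, 23.7 and 21.8 points in the cKOs. It was 9.46 points larger in the cKOs than in the 3 controls, and 12.8 points larger without control replicate 1 (exact permutation p = 0.1 in both, adjusted p = 0.3 and 0.112). All 3 cKO libraries exceeded all 3 controls in this measure, including control replicate 1. With reads pooled over cytosines this separation was lost, and the difference was 5.71 points (exact permutation p = 0.5) and 4.30 points without control replicate 1 (exact permutation p = 0.7).

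The share kept differed widely between single copies, 41 of which had 1 measured cytosine. The part of counting error in this spread was not tested. Of the 166 copies, 159 had a mean of at least 25% in control replicates 2 and 3, and in 149 of these all 3 cKO libraries were below both. This is a description over 2 and 3 libraries. Counted over 100 bp windows in place of copies, all cKO libraries were below both controls in 238 of 274 IAP windows and in 61.3% of all windows in the genome. Among windows at 25% or more in control replicates 2 and 3 these were 236 of 263 IAP windows, or 89.7%, and 90.8% of all windows, so that the IAP windows lay close to the background. In 137 of the 159 copies control replicate 1 was at or below the highest cKO library. The 80 copies measured on the element alone kept a median of 70.1% of control replicates 2 and 3, and 70 of them kept at least 50%. Of the 79 copies measured on 5′ host sequence alone, 72 were at 25% or more in control replicates 2 and 3, with a median of 46.6% kept, and 32 of these kept at least 50%.

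**Figure D4:**
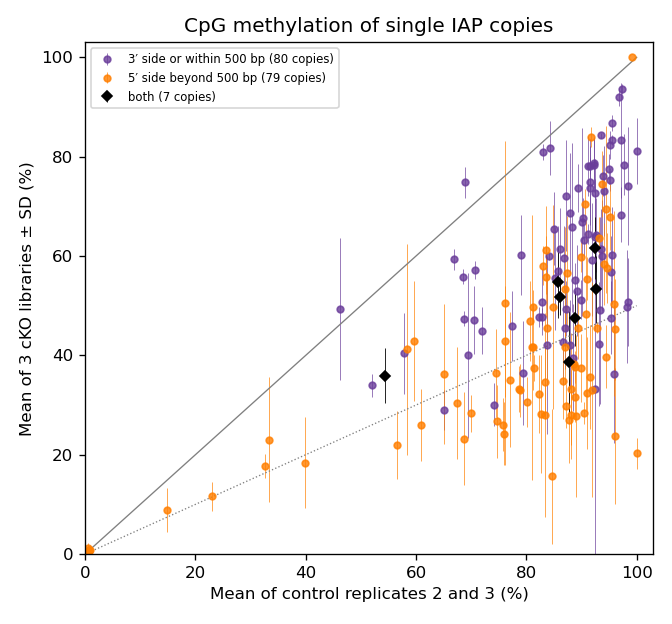
Methylation (%) of the 166 single copies, with the mean of control replicates 2 and 3 on the x axis and the mean ± SD of the 3 cKO libraries on the y axis; the solid line marks equal values and the dotted line 50% kept. Copies measured on the element (purple) lie mostly above the dotted line, and those measured on 5′ host sequence (orange) lie on both sides of it.

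The named copy with the highest cKO mean lay on chromosome 13 (44264795 to 44264885, plus strand) in an intron of a long non-coding RNA gene. Its 4 cytosines, 1766 to 1812 bp past the stretch, were at 92.6%, 97.3% and 97.4% in the controls and 94.3%, 94.2% and 92.5% in the cKOs. Its coverage of 1948 to 4377 reads per cytosine and library was far above the median, and the 41 bases around its cytosines occur up to 1243 times in the C-to-T converted genome. Sequence alone does not assign such reads to this copy, and how the mapping placed them is not given in the sources used here. The copies in introns of Macrod2 and Immp2l and the copy 692982 bp from Slitrk6 kept 90.9%, 87.2% and 90.1%, with 32 to 94, 8 to 27 and 15 to 60 reads per cytosine and library. In the Macrod2 copy, antisense to the gene, the controls were at 81.3%, 94.8% and 96.1% and the cKOs at 88.3%, 86.9% and 85.1%. All 4 of these high copies kept control replicate 1 at 72.9% or more.

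The 4 named copies with the lowest cKO means were measured in host sequence. Upstream of the copy in an intron of Akr1d1 (chromosome 6, 37549558 to 37549648) the 4 cytosines were at 11.2%, 60.8% and 52.2% in the controls and 21.8%, 28.9% and 15.2% in the cKOs. The 12 cytosines by the copy 6835 bp from Hsbp1 were at 37.0%, 84% and 91.3% in the controls and 28.0%, 34.9% and 17.9% in the cKOs. By the copies nearest Myocd and in an intron of Tll2, an astacin family protease gene, the cKO means were 24.2% and 26.1%, at 31.8% and 34.4% of control replicates 2 and 3. In these 4 copies, which were chosen for their cKO means, all cKO libraries lay below control replicates 2 and 3. The same held for 149 of the 159 copies at 25% or more in those controls, and for 90.8% of such windows in the genome. Control replicate 1 was below control replicates 2 and 3 in all 4. By the Hsbp1, Tll2 and Myocd copies it was at 37.0%, 38.9% and 40.5%, above all cKO libraries, the highest of which were at 34.9%, 29.5% and 31.0%. By the Akr1d1 copy it was below all cKO libraries.

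Among the 12 copies with the most cytosines, 4 had unmethylated flanks in every library. These lay 1589 to 2868 bp from the protein-coding genes Ogfod2, Ttll4, Chrac1 and Prpf39, and their means were between 0% and 2.38% in all 6 libraries. Together with the copy in Kcnk12 they made up the 5 copies under 10%, where no fall could be seen. The 13 cytosines by the copy near Sptssa, a subunit gene of serine palmitoyltransferase, were at 50.8%, 89.1% and 88.7% in the controls and 53.8%, 45.1% and 43.5% in the cKOs. The copy in an intron of Mmp1b, with 13 cytosines in the LTR region and host sequence, was at 52.4%, 86.3% and 85.1% in the controls and 57.5%, 60.3% and 46.5% in the cKOs. The flank in an intron of Slc2a9, a urate transporter gene, was at 14.8%, 78.6% and 56.3% in the controls, so that control replicates 2 and 3 themselves differed, and at 43.1%, 26.5% and 21.6% in the cKOs.

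Host sequence by the copy near Zc3hav1l was at 70.1%, 95.8% and 94.7% in the controls and 70.3%, 73.1% and 60.3% in the cKOs, and that by the copy near Otud7a at 34.7%, 88.3% and 85.7% in the controls and 47.2%, 67.7% and 45.2% in the cKOs. In the LTR region shown for the Gm28036 copy the controls were at 87.5%, 97.7% and 99% and the cKOs at 74.7%, 85.7% and 61.9%, from 6 to 22 reads per cytosine. In the LTR region of the Tram1 copy they were at 58.0%, 71% and 70.2% and at 58.4%, 57.9% and 55.2%. Control replicate 1 lay above all cKO libraries in the Gm28036 copy, as by the Hsbp1 copy described above. It did not in the Zc3hav1l, Otud7a and Tram1 copies. No copy with measured cytosines lay within 10 kb of Asip, Axin1 or Cdk5rap1, genes with known IAP-linked alleles.

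In 7 copies both the element and the 5′ host sequence were measured. The element kept the larger share of control replicates 2 and 3 in 5 of them, with medians of 71.7% for the element and 54.0% for the host sequence. The per-library difference did not separate the groups (exact permutation p = 0.9 with all libraries and 0.3 without control replicate 1). One of the 2 exceptions, the copy near Sptssa, rested on a single element cytosine whose 41 bases occur 1420 times in the converted genome. The copy near Cd209a, where the element kept more, also rested on a single element cytosine, with 575 occurrences. The 41 bases of every element cytosine occur once in the other exception, near 1700009N14Rik, and in the copy near B4galt5, where the element kept more.

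The same CpG, in the same 25 bases, could be followed across copies at 12 positions measured in at least 4 of them. At the position about 780 bp past the stretch, measured in 11 copies, control replicates 2 and 3 averaged 85.8% and the cKOs 71.1%, with single copies between 52.6% and 81.7% in the cKOs. At 3 neighbouring positions about 614 to 634 bp past it, in 4 or 5 copies each, the cKOs averaged 74.5%, 84.4% and 83.0%, at 77.5%, 90.1% and 86.0% of control replicates 2 and 3. At about 1873 bp, in 7 copies, the cKOs averaged 51.8% with single copies between 41.3% and 61.3%, and 60.4% was kept. Levels of single copies thus overlapped between the first and the last of these positions, although the sequence at each was identical.

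A few element CpGs were low in the controls. Of the 277 cytosines on the 3′ side or within 500 bp, 237 were at 80% or more in control replicates 2 and 3 and 16, in 14 copies, were under 30%, with cKO means of at most 43.1%. One was the CpG 101 bp before the stretch, which was at 0% to 5% in the 6 libraries in a copy on chromosome 1 (CpG at 58818546), at 0% to 2.22% in a copy on chromosome 6 (107587823) and at 0% to 8.33% in the Mmp1b copy on chromosome 9 (7375210), while the CpGs measured within 41 bp of it in the same copies were methylated. Of the 16 low cytosines, 6 lay in an MspI site, as did 87 of the other 261. Whether these CpGs are intact in the embryos studied was not tested.

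For 386 of the 588 cytosines the surrounding 41 bases occur once in the converted genome, and in them the element classes again kept more than the 5′ host classes, while the class within 500 bp lay above the nearer 3′ class. The cKO level was 79.4% ± 1.53 (SD, n = 3) of control replicates 2 and 3 within 500 bp (19 cytosines), 74.6% ± 2.06 (SD, n = 3) and 66.0% ± 3.96 (SD, n = 3) in the nearer and farther 3′ classes (47 and 42 cytosines), and 56.5% ± 6.64 (SD, n = 3) and 47.2% ± 6.02 (SD, n = 3) in the nearer and farther 5′ classes (32 and 246 cytosines). Without the 234 cytosines that lie in an MspI site, the difference between the cKOs and control replicates 2 and 3 was 21.5 points within 500 bp, 22.1 and 28.5 points in the 3′ classes, and 39.7 and 29.7 points in the 5′ classes from near to far. On the 5′ side beyond 500 bp, soft-masked cytosines kept 58.3% ± 4.72 (SD, n = 3) and the others 46.9% ± 6.14 (SD, n = 3). On the 3′ side, cytosines in introns kept 78.6% ± 2.50 (SD, n = 3) and intergenic ones 70.9% ± 2.12 (SD, n = 3). Cytosines on the coding strand of the copy and on the other strand kept 63.9% and 60.8%. At the edge of the 3000 bp limit, the 85 cytosines from 2500 to 3000 bp were at 67.3% in control replicates 2 and 3 and 31.6% in the cKOs, and the 72 within the next 500 bp outside it at 42.3% and 22.2%.

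Read counts of the cytosines were also summed over windows of 100 bp, so that a read counted at each cytosine it covered. The sums were tested with a quasi-binomial F test with moderated dispersion across 285466 windows. With all 6 libraries 0% of windows were called lower in the cKO (q under 0.01 and at least 25 points), and 0 of the 274 windows that hold IAP cytosines. At an unadjusted p under 0.05 there were 49 of the 274 (17.9%), beside 15.2% of all windows. The plain binomial test called 102 of them (37.2%), beside 37.5% of all windows, and limma 0. Without control replicate 1, 43.8% of all windows were called lower and 130 of the 274, with 0 higher. Only windows that start at 25% or more can fall by 25 points, and among these 67% of all windows and 130 of the 263 IAP windows were called. By class 2 of 21 were called within 500 bp, 9 of 42 and 29 of 55 in the nearer and farther 3′ classes, and 90 of 145 on the 5′ side beyond 500 bp.

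The 5 IAP windows with the largest fall among those called without control replicate 1 were taken with at least 50 reads in each library and all cKO libraries below both controls. The largest was the single CpG near Sptssa named above (chromosome 12, 54628201 to 54628300), at 12.9%, 88.8% and 84.1% in the controls and 19.9%, 18.0% and 14.9% in the cKOs (q = 2.6e-09 by the quasi-binomial test without control replicate 1). Its coverage was 464 reads in control replicate 1 and 495 to 702 in the cKOs, but 116 and 88 in control replicates 2 and 3, and coverage thus moved with the level; the part of this in the value was not tested. Host sequence by the copy 3583 bp from Pdlim3, a gene of an actin-associated protein, was at 32.2%, 90.2% and 91.8% in the controls and 24.1%, 37.4% and 19.7% in the cKOs (chromosome 8, 45920501 to 45920600; q = 7.3e-07). Windows by the copies near Dab2ip, Hsbp1 and Klra5 fell by 57.6, 57.4 and 54.8 points. With all 6 libraries the q of these 5 windows lay between 0.322 and 0.426. Control replicate 1 had a 95% Wilson interval of 10.2% to 16.3% in the first window and of 21.7% to 44.9% in the second, which cover counting error only.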

How the data were processed

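DNA methylation was measured by Ox-RRBS in 3 control and 3 cKO cortices. Per the study's methods, the authors mapped reads to GRCm38 with Genomatix software, allowing no mismatch, and dropped thinly covered positions. The submitters' processing notes name GRCm38 and methylKit. Each deposited file lists cytosines with their read count (coverage) and the percent of reads with C or T, not normalised between libraries and not pooled. Placement of reads with several matches is not given in the sources used here. Control and cKO were taken from the labels, which tie no library to a litter, so p-values reflect only the spread among libraries, which may be technical.

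From these files the methylated reads were recovered from coverage and percent. Cytosines with at least 6 reads in all 6 libraries were kept and assigned to the nearest IAP copy. The study's qPCR primers served to locate copies of IAP, LINE-1 and SINE-B1. LINE-1 and SINE-B1 cytosines within 3000 bp of an IAP copy were left out. Means were compared with two-sided exact permutation tests, Benjamini-Hochberg adjusted. Windows of 100 bp over all nuclear chromosomes were tested with a quasi-binomial F test whose dispersion was moderated by the empirical Bayes method of limma 3.58.1 (Python 3.11.15, numpy 2.4.6, pandas 2.3.3, R 4.3.3). Tested on simulated data, the test made false calls somewhat above the nominal share, so its q-values may be too small. Genes and introns came from GENCODE vM21 on GRCm38.

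Copies were named by rule: the 12 with the most cytosines, and the 4 highest and 4 lowest cKO means among copies with at least 4 cytosines and 50% in control replicates 2 and 3. The cytosines, classes and lists were chosen with earlier results of these data known. Alternatives were the coverage minimum, weighting, primer mismatches, omission of each library, the replicate block, other window tests and thresholds and, added after seeing the data, cytosines with a unique converted sequence and those outside MspI sites. Intervals cover counting error only, since reads carry no molecular identifiers. Deviations of same-numbered libraries had correlations over autosomal cytosines of -0.22, 0.076 and -0.27 for numbers 1, 2 and 3. These cannot decide whether the numbers mark pairs, since control replicate 1 stood far from the other controls. The numbers were not used to pair libraries in the main tests.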

Additional observations from a re-analysis of the deposited data

How the results depend on the processing

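The fall in the cKO kept its direction in every distance and side class under each alternative run, with all libraries and without control replicate 1. Over the IAP cytosines that each alternative kept, the difference lay between -20.0 and -15.5 points with all libraries, and between -29.0 without control replicate 1 and -12.9 without control replicate 2 when 1 library was left out. With control replicate 1 already left out it lay between -31.8 and -24.9 points. The near minus far difference stayed between 5.71 and 13.9 points with all libraries (4.30 to 16.3 without control replicate 1), and IAP minus LINE-1 between 4.78 and 9.26 points (7.07 to 14.3). IAP minus SINE-B1 reversed when each copy had the same weight, to 0.67 points with all libraries and 1.04 points without control replicate 1, and the cause was not tested. No exact permutation p of these means was below 0.1.

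Counts of called IAP windows moved most. With all libraries the plain binomial test called 102 and the omission of single libraries 0 to 130, with 130 on leaving out control replicate 1 and 0 on leaving out any other library. Without control replicate 1 and with at least 20 reads, 51 of the 88 IAP windows that could be tested were called, beside 55.7% of all windows tested so. By limma 56 were called, beside 17.7% of all windows. Leaving out a further library gave 58 to 129 (17.4% to 40.9% of all windows), with 58 and 73 without control replicates 2 and 3, where the 1 control library left is assumed to vary like the cKO libraries. With the replicate number as a replicate block, 0 were called either with all libraries or without control replicate 1, and the paired difference over all 588 cytosines was -18.3 points. Means within 500 bp and at 500 to 1000 bp on the 5′ side rest on 14 and 13 copies.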

Other observations

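IAP copies on the X chromosome lay outside the autosomal comparisons. There 21 cytosines near 6 copies were at 53.0%, 79.9% and 75.6% in control replicates 1 to 3 and 55.2%, 55.1% and 47.3% in cKO replicates 1 to 3. The cKO level was 67.6% ± 5.81 (SD, n = 3) of that in control replicates 2 and 3, and 52.3% ± 6.96 (SD, n = 3) over all 9796 X-linked cytosines. Control replicates 2 and 3 differed over all X-linked cytosines, at 59.0% and 45.9%.

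CCGG sites decide where IAP copies can be read by this assay. In the 970 autosomal copies the bin of 250 bp just 5′ of the located stretch held 2640 CCGG sites but 50 measured cytosines, and the bin from 1750 to 2000 bp on the 3′ side held 2653 sites and 58 cytosines. Of bins beyond 500 bp on the 5′ side, that from 2500 to 2750 bp held 134 sites and 40 cytosines. Fewer cytosines were thus measured per site within the element than in host sequence. The part of read placement in this was not tested.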
